A study of Bos taurus with 9 samples.

Results

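The goblet cell secretory genes described here are AGR2 (ENSBTAG00000024406), SPINK4 (ENSBTAG00000032093), TFF3 (ENSBTAG00000021276) and CLCA1 (ENSBTAG00000008161), which are 4 of the 24616 Ensembl genes in the deposited table. They were picked by name and identifier, and all 4 passed the filter on low values, together with 15410 genes in all. RNA-Seq of whole rectal tissue, from biopsies taken just proximal to the recto-anal junction (RAJ) after slaughter, gave 1 library for each of 9 steers. The super-shedders (SS) were 5 steers (274, 287, 294, 299 and 310) that had shed E. coli O157 in feces above the limit that defines super-shedding, and the non-shedders (NS) were 4 pen-mates (108, 152, 165 and 242) that tested negative for it. All were British x Continental feedlot steers on a barley-grain finishing diet, found by screening of feces in the feedlot, and no age is given in the labels. The SS were slaughtered some days after they were identified, and not all of them still shed above that limit, so SS and NS differ by shedding history rather than by an applied treatment.

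Goblet cells are secretory cells of the intestinal epithelium that make and release the mucus layer between the gut lumen and the tissue. AGR2 encodes a protein disulfide isomerase of the endoplasmic reticulum that intestinal mucin needs for its folding. TFF3 is a trefoil peptide secreted with mucus, CLCA1 is a secreted metalloprotease found in colonic mucus, and SPINK4 is a small Kazal-type protease inhibitor made by goblet cells. EPCAM, an adhesion molecule carried by all intestinal epithelial cells, served as the reference row for the amount of epithelium in a biopsy.

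The libraries held from 5412523 (SS 274) to 12278503 (NS 108) reads on genes. SS 274 also had the lowest share of mapped reads of all libraries in the study's own report. Values are CPM, read counts scaled to the total of each library, and 1 read was worth 0.0814 CPM in NS 108 and 0.185 CPM in SS 274. CPM are not scaled by gene length, so levels are compared between steers and not between genes. In whole tissue, fewer goblet cells and less RNA per goblet cell cannot be told apart.

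Each of the 4 genes varied by at least 190.2-fold between steers, and the same steer, SS 294, was the lowest for each. AGR2 was at 4133, 3818, 3348 and 395 CPM in NS 108, 152, 165 and 242, and at 144, 5738, 30.2, 832 and 5129 CPM in SS 274, 287, 294, 299 and 310. The highest and the lowest steer, 287 and 294, were thus both SS and 190.2-fold apart. SPINK4 was at 468, 549, 756 and 93.5 CPM in these NS and at 11.3, 1439, 5.07, 222 and 1818 CPM in these SS, so that the SS lay on either side of the NS, with SS 310 and 287 above every NS and SS 274 and 294 below every NS. TFF3 was at 219.6, 260.3, 225 and 33.6 CPM in the NS and at 49.5, 288, 1.07, 82.2 and 342 CPM in the SS. The TFF3 value of SS 294 rested on 8 reads, with a 95% Wilson interval from 0.541 to 2.11 CPM for counting error only. CLCA1 was at 4814, 9673, 4066 and 409.9 CPM in the NS and at 805, 3929.6, 40.8, 3531 and 5474 CPM in the SS, and here an NS, steer 152, was the highest. The ranges of SS and NS overlapped for 4 of 4 genes, where over all genes tested 2.1% had every SS below every NS and 0.162% every SS above.

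**Figure D1:**
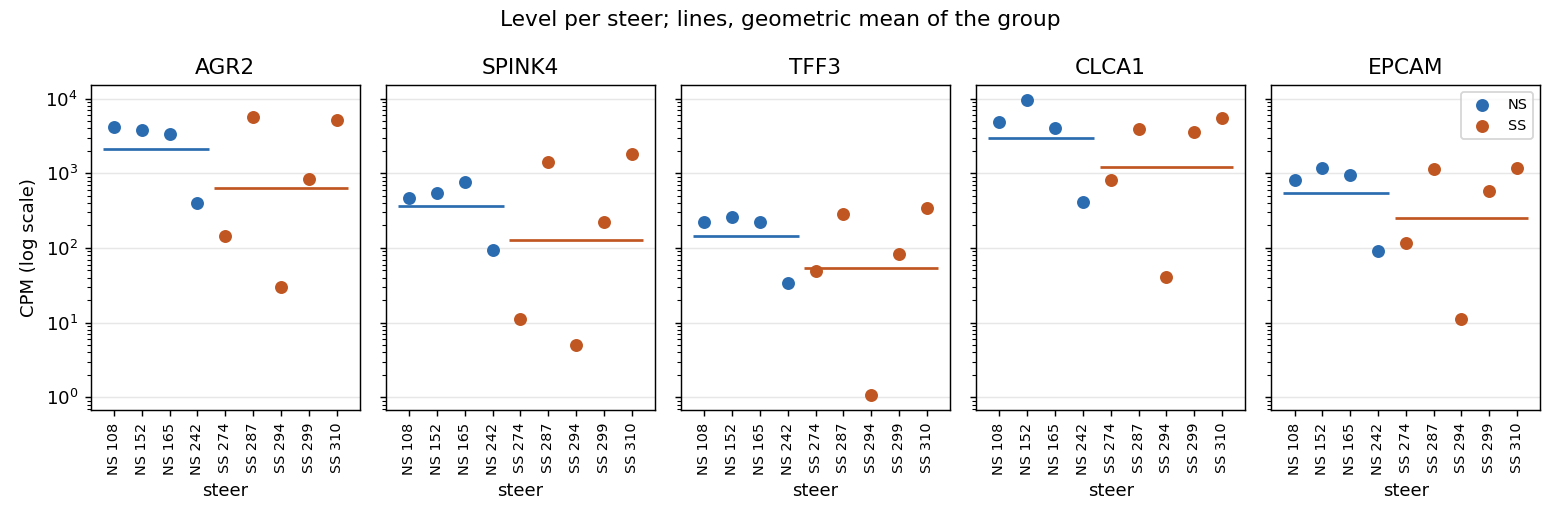
CPM on a log axis for AGR2, SPINK4, TFF3, CLCA1 and the reference EPCAM in each steer, NS in blue and SS in orange, with a line at the geometric mean of each group. In every panel SS 294 is the lowest steer, NS 242 and SS 274 are the next lowest in either order, and the groups overlap. Levels are not to be compared between panels, since CPM are not scaled by length.

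EPCAM was low in the same steers. It was at 817, 1195, 951 and 92.2 CPM in NS 108, 152, 165 and 242 and at 115, 1136, 11.3, 572 and 1171 CPM in SS 274, 287, 294, 299 and 310. SS 294 was again the lowest, with 85 reads, and NS 242 and SS 274 were next. The SD of log2(CPM + 0.5) over the 9 steers was 2.68 for AGR2, 2.96 for SPINK4, 2.48 for TFF3, 2.49 for CLCA1 and 2.32 for EPCAM, where the median of all genes tested was 0.50. Of the genes tested, 0.143% varied more than SPINK4, 0.234% more than AGR2, 0.454% more than CLCA1 and 0.474% more than TFF3. Without SS 274 and 294 the SD of the 4 genes was between 1.21 and 1.49, and without SS 294 alone that of TFF3 was 1.28 and that of CLCA1 1.53. In the 5 steers with over 800 CPM of EPCAM (NS 108, 152 and 165 and SS 287 and 310), the highest and the lowest steer were 1.71-fold apart for AGR2, 1.56-fold for TFF3, 2.46-fold for CLCA1 and 3.89-fold for SPINK4.

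The steers lowest in the goblet genes also differed from the rest in RNA of other tissues. The summed level of 10 smooth muscle genes (11 listed) ranged from 2963 to 16811 CPM in NS and from 435 to 57302 CPM in SS, and it was highest in SS 294 and lowest in SS 274. For 11 fibroblast genes (12 listed) the sum ranged from 4683 to 10552 CPM in NS and from 2756 to 42954 CPM in SS, with SS 274 the highest, SS 294 next at 21658 CPM and NS 242 the highest NS. The 5 B-cell genes (8 listed) summed to 65.0 to 564 CPM in NS, highest in NS 242, and to 4.14 to 38.8 CPM in SS, so that every SS sum was below every NS sum. In limma 5 of these 5 genes were lower in SS at an unadjusted p below 0.05, where 3.6% of all genes were, but 0 after adjustment and 0 relative to EPCAM. The 9 pan-epithelial genes (17 listed) summed to 621 CPM in NS 242, 706 CPM in SS 274 and 83.6 CPM in SS 294, and to at least 2561 CPM in each of the other steers. JCHAIN, a plasma cell gene, was at 59.3 CPM in SS 274 and 86.9 CPM in SS 294, and at 1169 CPM or more in each other steer. Macrophage genes (4 of 7 listed) summed to 1113 CPM in SS 274 and 854 CPM in NS 242. In the other steers, SS 294 included, they summed to at most 330 CPM. Of the matched genes of these lists, 0 were at 0 in any steer. The part of these tissues in the goblet values was not tested.

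The comparison of SS with NS asks whether goblet genes differ in cattle that shed E. coli O157 heavily. None of the 4 genes differed beyond the spread of the steers. The mean of AGR2 was 2924 ± 1716 CPM over the NS (SD, n = 4) and 2375 ± 2818 CPM over the SS (SD, n = 5), and its log2 fold change was -1.74 (moderated standard error of limma 1.56, and 1.81 from the AGR2 values alone). SPINK4 was at 467 ± 277 and 699 ± 863 CPM, so that its mean was higher in SS while its log2 fold change was -1.49 (1.76 and 2.05 likewise). TFF3 was at 185 ± 102 and 153 ± 152 CPM, a log2 fold change of -1.33 (1.46 and 1.70), and CLCA1 at 4741 ± 3810 and 2756 ± 2266 CPM, a log2 fold change of -1.30 (1.48 and 1.72). The adjusted p of limma over all genes was 0.931 for AGR2 and 0.936 for the others. Exact permutation tests over every division of the steers, two-sided, gave p = 0.397 for AGR2, 0.476 for SPINK4, 0.556 for TFF3 and 0.492 for CLCA1, where the smallest p they can give is 0.0159.

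Over all genes, limma called 0% in either direction, a call being an over 2-fold change with an adjusted p under 0.05. At an unadjusted p below 0.05, 0.357% of genes were higher and 3.6% lower in SS (55 and 555 genes), and 0 of the 4 goblet genes were among them. That split moved to 190 higher and 265 lower with median-of-ratios scaling and to 162 and 307 with TMM. edgeR called 0 genes, with 240 higher and 357 lower at an unadjusted p below 0.05. DESeq2 called 19, all lower in SS, with 497 higher and 400 lower at an unadjusted p below 0.05, and of the 19 calls 0 were among the 21 goblet genes described below. The log2 fold change in edgeR was -0.20 for AGR2, 0.66 for SPINK4, -0.19 for TFF3 and -0.74 for CLCA1. Over all genes the median log2 difference was -0.13, and with median-of-ratios scaling it was 0.01. All 4 differences turned positive without SS 274 and 294, to 0.44 for AGR2, 1.18 for SPINK4, 0.48 for TFF3 and 0.51 for CLCA1 on the log2 scale, and without SS 294 alone those of TFF3 and CLCA1 were -0.03 and -0.09. The 95% interval from inverting the exact test allowed a log2 difference from -6.79 to 2.26 for AGR2, so neither a large fall nor a rise could be told from no difference at this number of steers.

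Relative to EPCAM the goblet genes were far closer between steers, but not equally so. The ratio of CLCA1 to EPCAM varied 2.34-fold over the 9 steers, that of AGR2 4.05-fold, that of TFF3 4.58-fold and that of SPINK4 15.8-fold. The SD of the log2 ratio was 0.43, 0.75, 0.56 and 1.17 in this order, against a median of 2.34 over all genes tested. That median mostly carries the spread of EPCAM itself, whose SD in CPM was 2.32 where the median gene had 0.50. The share of genes with a smaller SD of this ratio was 0.299% for CLCA1, 0.539% for TFF3, 1.12% for AGR2 and 2.74% for SPINK4. Such closeness was not particular to the goblet genes, as the SD was 0.33 for CDH17 and 0.41 for KRT19. Among 2031 other named genes with a mean of at least 10 CPM, CLCA1 had rank 16 in closeness to EPCAM. TFF3 had rank 29, AGR2 rank 51 and SPINK4 rank 84. Without SS 274 the SD of SPINK4 was 0.74. A ratio compares 1 gene between steers, and its absolute size depends on gene length.

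The ratio of AGR2 to EPCAM was 5.06, 3.20, 3.52 and 4.28 in NS 108, 152, 165 and 242 and 1.25, 5.05, 2.66, 1.46 and 4.38 in SS 274, 287, 294, 299 and 310. SS 274 and 299 stood below all other steers, with 95% Wilson intervals for counting error of 1.13 to 1.39 and 1.40 to 1.51. The ratio of SPINK4 was 0.573, 0.459, 0.795 and 1.01 in the NS and 0.0981, 1.27, 0.447, 0.389 and 1.55 in the SS, so that SS held the highest pair of steers as well as the lowest 3. For TFF3 it was 0.269, 0.218, 0.236 and 0.364 in the NS and 0.431, 0.254, 0.0941, 0.144 and 0.292 in the SS, and SS 274, lowest for AGR2 and SPINK4, was the highest. The interval of SS 294, from 0.0463 to 0.191, held the value of SS 299. For CLCA1 the ratio was 5.90, 8.10, 4.27 and 4.45 in the NS and 7.003, 3.46, 3.60, 6.18 and 4.67 in the SS, with only NS 152 above SS 274.

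**Figure D2:**
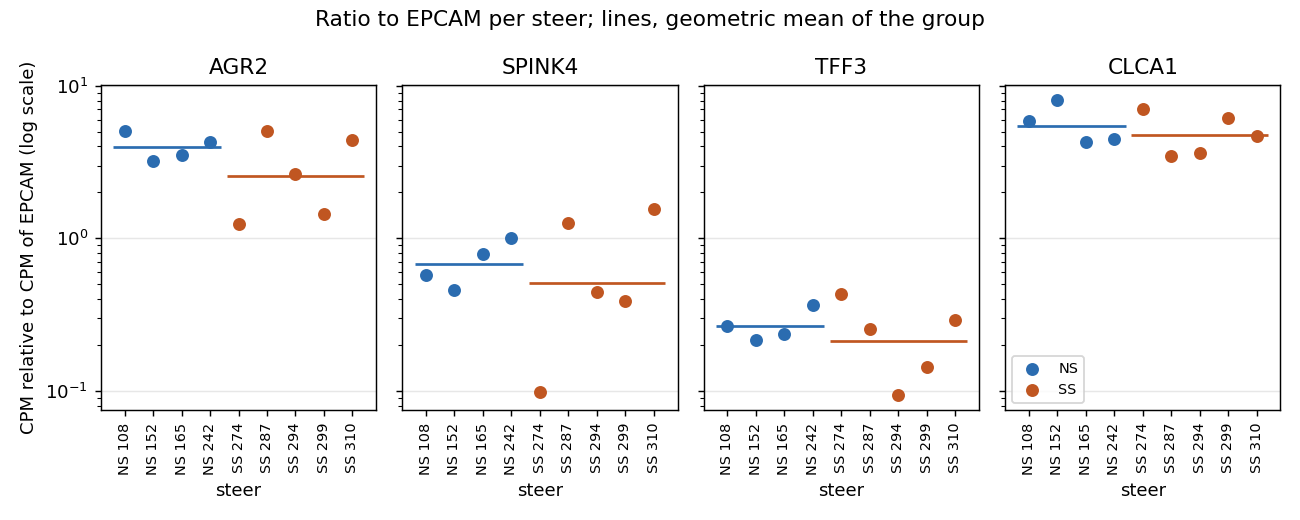
CPM of AGR2, SPINK4, TFF3 and CLCA1 divided by the CPM of EPCAM in the same steer, on a log axis, NS in blue and SS in orange, with a line at the geometric mean of each group. SS 274 is the lowest steer for AGR2 (1.25) and SPINK4 (0.0981) and the highest for TFF3 (0.431), and the groups overlap for every gene.

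SS and NS did not differ in these ratios beyond the spread of the steers. The mean log2 ratio of SS was below that of NS by a log2 difference of -0.64 for AGR2, -0.39 for SPINK4, -0.23 for TFF3 and -0.20 for CLCA1, with exact permutation p of 0.270, 0.746, 0.571 and 0.476. The 95% intervals from inverting this test ran from -1.79 to 0.51 for AGR2, from -2.49 to 1.46 for SPINK4, from -1.23 to 0.72 for TFF3 and from -1.005 to 0.60 for CLCA1. For CLCA1 the lower end of the interval corresponds to 0.498 times the NS level, and for SPINK4 to 0.177 times. In limma on the ratios of all genes the adjusted p was 0.856 for AGR2, 0.884 for SPINK4, 0.928 for TFF3 and 0.936 for CLCA1, and 0.00649% of genes were higher and 0.00649% lower in SS at an unadjusted p below 0.05. This fit sets its standard error largely from genes that do not follow EPCAM, 1.67 for AGR2 against 0.478 from the steers' own AGR2 ratios, and the exact test uses the latter only. The SPINK4 difference was 0.19 without SS 274, that of AGR2 was -0.39 without SS 274, that of TFF3 was -0.03 without SS 294 and that of CLCA1 was -0.02 without NS 152.

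**Figure D3:**
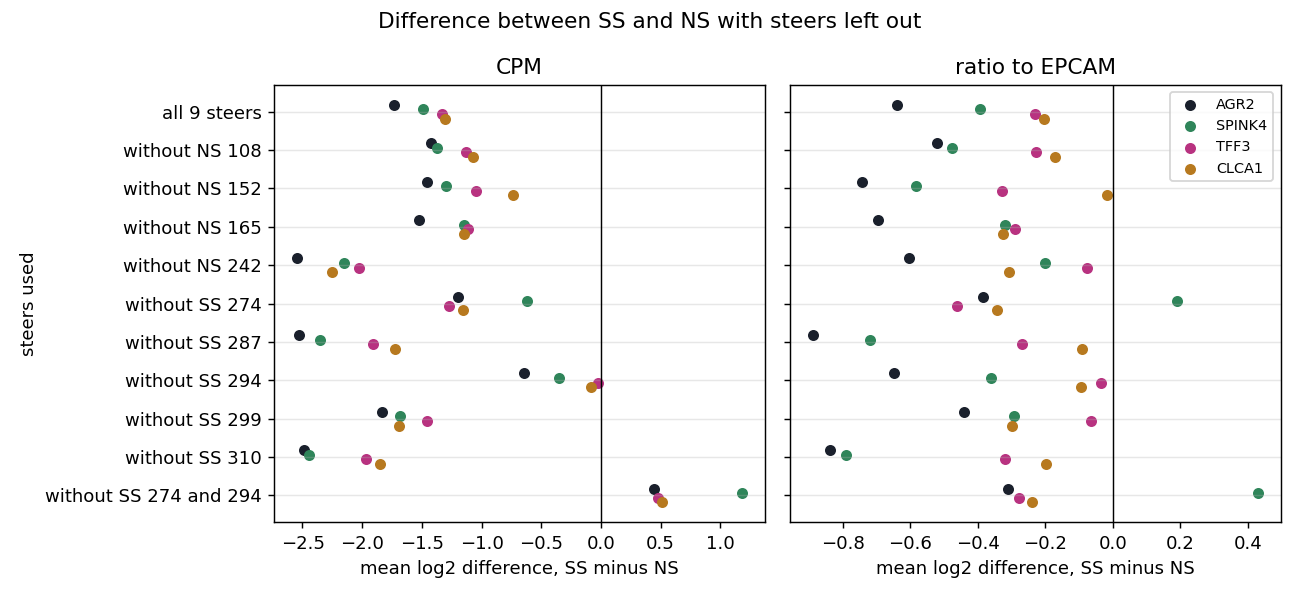
Mean log2 difference of SS from NS for the 4 genes, in CPM on the left and as a ratio to EPCAM on the right, with all 9 steers and with the steers named on the vertical axis left out. The CPM differences lie to the right of 0 only where SS 274 and 294 are both left out, and the SPINK4 ratio also changes sign without SS 274.

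Which goblet genes were most alike depended on SS 274, the library with the fewest reads on genes and the lowest share of mapped reads. The part of library quality in its values was not tested. Of the 6 pairs, the SD of the log2 ratio over the 9 steers was smallest for TFF3 with CLCA1 (0.63) and for AGR2 with SPINK4 (0.67), and largest for SPINK4 with CLCA1 (1.47) and for SPINK4 with TFF3 (1.34). Without SS 274, an alternative chosen after seeing the data, it was smallest for AGR2 with TFF3 (0.36, against 0.86 with all steers), and next for SPINK4 with TFF3 (0.51) and AGR2 with SPINK4 (0.53), while the pairs with CLCA1 were at 0.66 to 1.03. With any other single steer left out, TFF3 with CLCA1 and AGR2 with SPINK4 were still the most alike. The ratio of SPINK4 to TFF3 was between 2.11 and 3.36 in NS, and in SS it was 0.228 in steer 274, 4.99 in 287, 4.75 in 294, 2.70 in 299 and 5.32 in 310. The ratio of AGR2 to TFF3 was between 11.8 and 18.8 in NS, and in SS it was 2.90 in steer 274 and from 10.1 to 28.3 in the others. In SS 299, CLCA1 was above its median ratio to EPCAM and the other 3 genes were below theirs. The ratio of AGR2 to CLCA1 was 0.236 in SS 299, next to 0.179 in SS 274, and the ratio of TFF3 to CLCA1 was lowest in SS 299, at 0.0233.

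NS 242 and SS 274 were near each other in EPCAM, 92.2 and 115 CPM or 1.25-fold higher in SS 274, and their goblet genes are set side by side here as single steers, with no replicate. AGR2 was 2.75-fold and SPINK4 8.29-fold higher in NS 242. TFF3 was 1.48-fold and CLCA1 1.96-fold higher in SS 274. Relative to EPCAM the counting intervals of TFF3 overlapped between these steers (0.318 to 0.417 in NS 242 and 0.373 to 0.497 in SS 274), and those of the other 3 genes did not. REG4, a secreted lectin of the gut epithelium, and CHGA, a granule protein of enteroendocrine cells, were 2.35-fold and 2.64-fold higher in NS 242. Of the other genes of the goblet lists, TFF2 was 1.46-fold and HEPACAM2 1.44-fold higher in SS 274, as was LYPD8, better known from colonocytes, by 3.88-fold. WFDC2 was 1.25-fold and AGR3 2.60-fold higher in NS 242, with AGR3 at only 3.14 CPM in SS 274. SLC26A3, the chloride exchanger of surface colonocytes, was 4.46-fold and CA1, a carbonic anhydrase of the same cells, 1.87-fold higher in SS 274. The steers differed in shedding group and in other tissue as well, with 10552 CPM of the fibroblast genes in NS 242 and 42954 CPM in SS 274.

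The genes most like each goblet gene also depended in part on SS 274. Likeness was taken as the SD of the log2 ratio between a pair of genes over the 9 steers, a smaller SD being more alike, with 2031 other named genes that had a mean of at least 10 CPM. For AGR2 the closest were KRT19 (0.36), an epithelial keratin, REG4 (0.47) and CHST4 (0.51), a carbohydrate sulfotransferase. For SPINK4 they were AGR2 (0.67), REG4 (0.70) and CHGA (0.79). The closest to TFF3 were TSPAN1 (0.25), a tetraspanin of epithelial cells, KRT20 (0.32), a keratin of differentiated intestinal epithelium, and FABP1 (0.34), a fatty acid binding protein of enterocytes. The closest to CLCA1 were CA1 (0.41), EPCAM (0.43) and CDH17 (0.47), an intestinal cadherin. The median over all named genes was between 2.38 and 2.85, which mostly carries the spread of each goblet gene itself (SD in CPM from 2.48 to 2.96). Without SS 274, KRT19 was still the closest to AGR2 (0.27) and TSPAN1 to TFF3 (0.14), whereas the closest to SPINK4 was WFDC2 (0.32), which was also among the closest 3 to TFF3 (0.26) and to AGR2 (0.34). TSPAN1 then came second for AGR2 (0.32), where it had been at 1.05 with all 9 steers. The closest to CLCA1 was then PIGR (0.41), the epithelial receptor that carries IgA, named here after its value was seen, with EPCAM (0.42) and CA1 (0.43) next. Every gene here shares the same 9 libraries, so these values describe the steers and carry no test.

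Of 56 goblet genes listed, 21 could be matched to an identifier, and MUC2, the main intestinal mucin, was not among them and is not analysed here. All 21 were tested and 0 were called in either direction, where 0% of all genes were. SS and NS overlapped in 21 of 21, in CPM and relative to EPCAM alike. Over all genes, 2.1% had every SS below every NS in CPM and 0.162% every SS above. Relative to EPCAM these shares were 0% and 0.00649%. In CPM 20 had a negative and 1 a positive log2 fold change, with a median of -0.89, and relative to EPCAM 9 were negative and 12 positive, with a median of 0.21, against a median of all genes of -0.13 and 0.97. The 0.97 mostly carries the log2 difference of EPCAM itself, -1.10, with its sign turned. The goblet medians and the 0.97 rested on SS 294. Without it, an alternative chosen after seeing the data, the goblet median was -0.05 in CPM and -0.06 relative to EPCAM, with 16 of 21 negative in both, and the median of all genes relative to EPCAM was -0.11. Without NS 242 the latter was 1.84, and without SS 274 and 294 it was -0.83, where the goblet median was 0.59 in CPM and -0.16 relative to EPCAM. The lowest exact permutation p was 0.365 in CPM, for GALNT5, and 0.0952 relative to EPCAM, for HEPACAM2.

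Among the other secreted products, REG4 was at 939, 1534, 1415 and 169 CPM in NS 108, 152, 165 and 242 and at 71.9, 1604, 17.0, 478 and 2907 CPM in SS 274, 287, 294, 299 and 310. WFDC2, a secreted protein with whey acidic protein domains, ranged from 27.6 to 254 CPM in NS and from 1.07 to 347 CPM in SS. LYPD8, which colonocytes rather than goblet cells are known for, ranged from 123 to 1354 CPM in NS and from 6.81 to 1056 CPM in SS. TFF2, the trefoil peptide known from the stomach, was the least regular, with a ratio to EPCAM that varied 60.3-fold. TFF2 was at 77.4, 104, 43.3 and 20.5 CPM in the NS and at 29.9, 65.2, 0.667, 3.38 and 418 CPM in the SS. SS 310 was thus above every NS, and SS 299 was below every NS although its EPCAM was at 572 CPM.

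The genes for folding and glycosylation differed in how closely they followed EPCAM. AGR3, a paralogue of AGR2, had an SD of the log2 ratio to EPCAM of 0.55 and was, like AGR2, lowest in SS 274 relative to EPCAM. GALNT5 and GALNT3, which start O-linked glycans on mucins, had an SD of 0.45 and 0.63. XBP1, a transcription factor of secretory cells that plasma cells also use, and QSOX1, a sulfhydryl oxidase, had an SD of 1.64 and 1.57 and were highest relative to EPCAM in SS 294, where they were still at 119 and 84.2 CPM. HEPACAM2 kept the most constant ratio to EPCAM of the 21 genes, with an SD of 0.21 and a range of 1.53-fold, and KLF4, a transcription factor of differentiated epithelium and of other cells, kept the least, with an SD of 1.93. In SS 274, 4 of the 21 genes were more than 2-fold below their median ratio to EPCAM (SPINK4, REG4, AGR2 and AGR3) and 5 were more than 2-fold above it. In SS 294, 10 were more than 2-fold above it and in NS 242 there were 8. With the pseudocount of 0.5 CPM 0 were below it in SS 294, but without a pseudocount, an alternative chosen after seeing the data, TFF3 and WFDC2 were. In SS 299, AGR2 and TFF2 were more than 2-fold below it and 0 were above it, and in NS 108 and 152 there were 0 of either. NS 165 had TFF2 below, though not without the pseudocount, SS 287 had 1 gene above and SS 310 had 2 above.

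**Figure D4:**
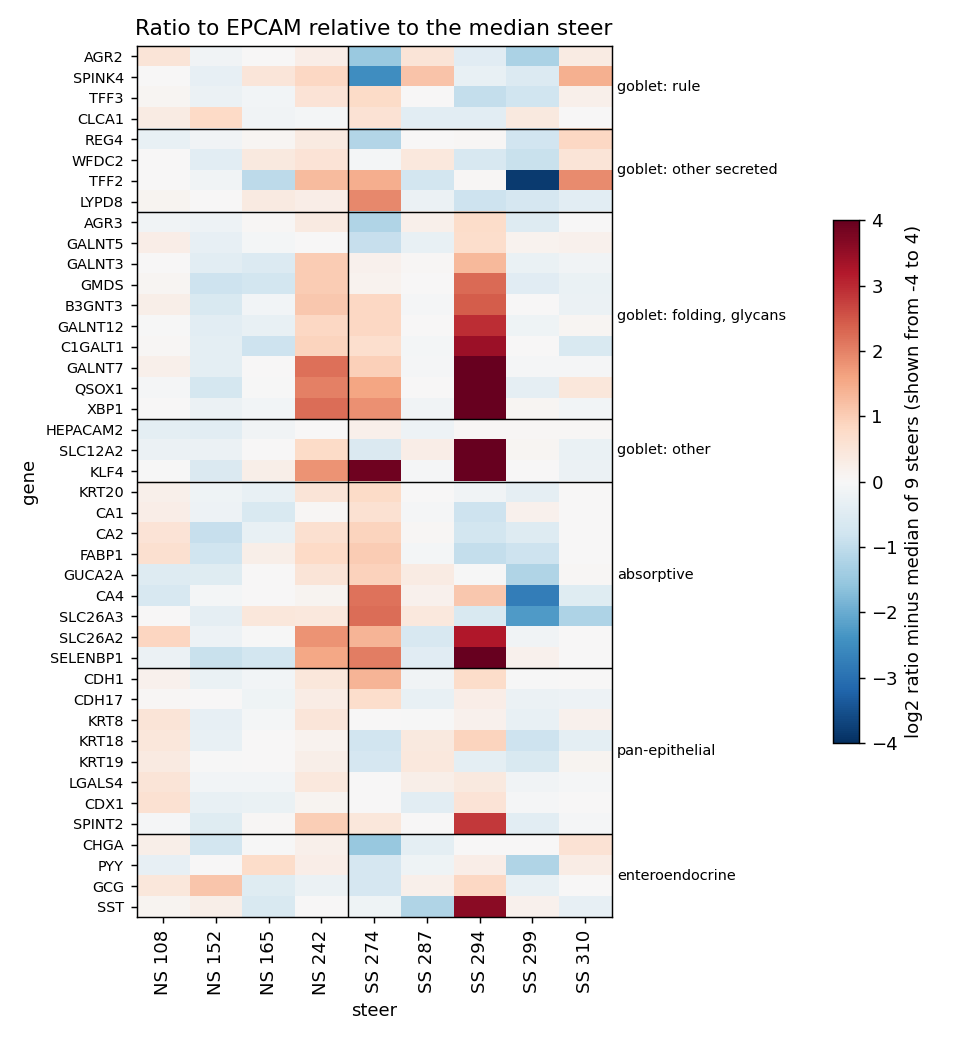
Log2 ratio to EPCAM of each gene in each steer, minus the median of that gene over the 9 steers, in rows grouped by list, with red above and blue below the median and colours ending at -4 and 4. In the column of SS 274, AGR2, SPINK4, REG4, AGR3 and CHGA are blue and LYPD8 and SLC26A3 red, and in the column of SS 294 XBP1, QSOX1 and KLF4 are among the darkest red.

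Of the other epithelial lists, the absorptive colonocyte genes were 9 of 16 listed, the enteroendocrine genes 4 of 9 and the pan-epithelial genes 9 of 17, and limma called 0 of each. Their median log2 fold changes in CPM were -0.98, -1.29 and -1.11, beside -1.34 for the 7 goblet secreted products, -0.63 for the 11 genes of folding and glycosylation and -0.48 for the 3 others. Relative to EPCAM the medians were 0.12 for the absorptive, -0.19 for the enteroendocrine and -0.05 for the pan-epithelial genes, beside -0.24 for the goblet secreted products, 0.47 for the genes of folding and glycosylation, of which 9 of 11 were positive, and 0.62 for the 3 others. In SS 294, the folding and glycosylation genes lay at a median of 2.42 above their median log2 ratio to EPCAM, and the 3 others at 3.97. The secreted products lay at -0.42. Which cells these genes came from in SS 294 was not tested. Without SS 294 the medians relative to EPCAM were -0.13 for the secreted products, -0.06 for folding and glycosylation, with 3 of 11 positive, and 0.25 for the 3 others. Those in CPM were then -0.12, -0.05 and 0.26, and 0.05, -0.36 and -0.14 for the absorptive, enteroendocrine and pan-epithelial genes. Relative to EPCAM, the absorptive median was -0.18 and the enteroendocrine median 0.05 without SS 274. The enteroendocrine median was -0.36 without SS 294.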

How the data were processed

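RNA-Seq libraries of rectal tissue came from 5 SS and 4 NS steers, 1 library per steer. The authors made stranded, rRNA-depleted libraries, mapped the reads to UMD3.1 with TopHat2 and deposited CPM per Ensembl gene, while their own tests used FPKM from Cufflinks. The submitters' processing notes also name HTSeq and edgeR, without a role. Of the deposited CPM values, 100% were whole multiples of 1 read within 0.01 reads, so counts were recovered. The main test was limma 3.58.1 (R 4.3.3) on log2(CPM + 0.5), with the prior variance following the mean level, for genes that reached 0.5 CPM in 4 or more steers, adjusted by Benjamini-Hochberg over all genes tested. Fold changes on this scale understate those of low genes. The same fit was run on log2 ratios to EPCAM. Exact permutation tests were run for single genes. edgeR 4.0.16 (quasi-likelihood) and DESeq2 1.42.0 were run on the recovered counts, and the fits were tested on simulated data. Other pseudocounts, filters, scalings, a reference of 5 epithelial genes and the omission of steers were alternatives.

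The genes and lists were chosen with earlier results of these data known. Named are the 4 genes and EPCAM, genes of the goblet lists, up to 3 genes with the highest mean CPM of every other list, and the 3 genes most like each of the 4. Names came from supplementary tables of the study, of which a shortened copy was used. It named 2052 identifiers, so that list genes outside it, and other genes in the likeness ranking, were not analysed here. This holds for every gene of the squamous epithelium and erythrocyte lists. By group, macrophage genes summed to 246 to 854 CPM in NS and 209.5 to 1113 CPM in SS. For T cells, plasma cells, endothelium and cycling cells 1 gene each was named. Of these genes and the macrophage genes, 0 were called. P-values rest on the spread between steers, and Wilson intervals cover counting error only. Coordinates and sequences of the genes were not used here. Nothing in the labels gives a sequencing batch.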

Additional observations from a re-analysis of the deposited data

Results flagged for a closer look

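In 18 groups tested (NS and SS for the log2 CPM of the 4 genes and EPCAM and for the 4 log2 ratios), 3 values stood apart by Dixon's criterion, where chance gives about 1 in 20 groups. All 3 were the low values of NS 242, which share a library. On the log2(CPM + 0.5) scale AGR2 was at 8.63 in NS 242 against 11.7 to 12.01 in the other NS, TFF3 at 5.09 against 7.78 to 8.03, and EPCAM at 6.53 against 9.67 to 10.2. Relative to EPCAM no value of NS 242 stood apart. NS 242 also had the most RNA of B-cell genes, 564 CPM, and the part of this in its low goblet values was not tested.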

How the results depend on the processing

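The direction in CPM changed when SS 274 and 294, the lowest SS of each gene, were left out while the low NS 242 was kept. Such an omission on 1 side can only raise SS relative to NS. Without both, the log2 differences of AGR2, SPINK4, TFF3 and CLCA1 were 0.44, 1.18, 0.48 and 0.51 (exact permutation p from 0.400 to 0.971). With single steers left out they stayed negative, from -2.55 to -0.64 for AGR2, -2.44 to -0.35 for SPINK4, -2.25 to -0.09 for CLCA1 and -2.02 to -0.03 for TFF3, the value nearest 0 being that without SS 294 in each. SPINK4 was higher in SS by 0.66 in edgeR (adjusted p = 0.981) and 0.68 in DESeq2 (adjusted p = 0.984). AGR2 was at -0.20 and -0.19, TFF3 at -0.19 and -0.18 and CLCA1 at -0.74 and -0.73 in these tools. The tools model counts, where limma compares means of log values. The mean CPM of SPINK4 was also higher in SS (699 against 467 in NS), and those of AGR2, TFF3 and CLCA1 were lower. The cause was not tested further. The SPINK4 ratio to EPCAM went from -0.79 without SS 310 to 0.19 without SS 274, and to 0.43 without SS 274 and 294. The ratios of AGR2, TFF3 and CLCA1 stayed negative under all 13 alternatives each, but came as near to 0 as -0.39 without SS 274, -0.03 without SS 294 and -0.02 without NS 152. The lowest exact permutation p for a gene under any alternative was 0.143. Genes at an unadjusted p below 0.05 numbered 610, and from 316 without NS 242 to 1177 without SS 287. The count of called genes was 19 with DESeq2, 0 to 1 with single steers left out (1 without NS 108 and 1 without SS 299) and 0 under the other alternatives, ratios included. No paired analysis was possible, because the labels do not say which SS and NS steers shared a pen. Counting error is widest for SS 294, where TFF3 had 8 reads and EPCAM 85 at a depth of 7492386 reads on genes, above that of SS 274 and 299.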
